A study of Mus musculus with 18 samples.

Results

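Protein folding in the endoplasmic reticulum (ER) and the integrated stress response were followed in mouse liver through 36 genes, taken as a fixed list of gene symbols out of the 15572 genes of the RNA count table. The list held 24 genes of the ER and 12 genes of the ATF4 branch. The ER genes were 14 chaperones and folding factors, 3 sensors and transcription factors of the unfolded protein response, and 7 of ER-associated degradation (ERAD). The ATF4 branch held ATF4 itself, genes it is known to drive, and *Ppp1r15b*, a constitutive gene counted with them. All 36 genes were in the table and all passed the filter on low counts.

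The study asked how JMJD1C, a histone H3 lysine 9 demethylase, acts on liver genes after feeding. RNA-seq compared livers of wild-type (WT) mice and of mice with a liver-specific deletion (JMJD1C-LKO), both fasted overnight and then refed a high carbohydrate diet for 6 h, with 2 libraries of pooled liver RNA in each group. ATAC-seq, a measure of open chromatin, was made in 2 livers each of fasted WT, refed WT and refed JMJD1C-LKO mice, and ChIP-seq of dimethylated H3K9 (H3K9me2) in 2 livers each of fasted and refed WT mice. All mice were of the c57bl/6j strain and had 6 to 8 weeks on chow, and mice of the study were 12 weeks old unless stated otherwise. The refeeding time is that of the labels, and the methods give a longer one for such experiments in general. The deletion was made with floxed *Jmjd1c* alleles and a Cre driven by the albumin promoter, which is active in hepatocytes, so other liver cells keep the gene, and the WT animals were littermates. The chromatin samples were single livers.

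When unfolded proteins build up in the ER, 3 membrane sensors respond. IRE1 (encoded by *Ern1*) removes a short piece from the *Xbp1* mRNA, ATF6 is cut to release a transcription factor, and PERK phosphorylates eIF2α, which slows translation but favours that of ATF4. XBP1 and ATF6 drive chaperone and ERAD genes, many of them through the ER stress response element (ERSE), while ATF4, which amino acid shortage also switches on, drives genes of amino acid synthesis and of stress signalling. The liver secretes much protein and feeding raises the load on its ER.

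The ERSE was searched in the RefSeq promoters of the members (300 bases each, GRCm38.p6, which is the mm10 build of the files), as the letters CCAAT, any 9 bases and CCACG on either strand. The promoter table held 31 of the 36 members, without Manf, Hyou1, Atf6, Derl1 and Ppp1r15b. An ERSE was present in 9 of the 21 promoters of ER members (42.9%), in 0 of the 13 promoters of ATF4 members and in 39 of all 32851 promoters of the table (0.119%). The sites are shown because they set the ER members apart by sequence, each on the motif strand with both parts of the motif in capitals, and *Hsp90b1* has both of those listed for it.
Hspa5, chr2:34772025-34772043 (+): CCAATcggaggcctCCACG
Calr, chr8:84847075-84847093 (+): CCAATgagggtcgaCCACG
Derl3, chr10:75893242-75893260 (-): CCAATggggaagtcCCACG
Hsp90b1, chr10:86705638-86705656 (-): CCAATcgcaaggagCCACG
Hsp90b1, chr10:86705533-86705551 (+): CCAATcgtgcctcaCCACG
Canx, chr11:50325800-50325818 (-): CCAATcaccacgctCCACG
Pdia6, chr12:17266491-17266509 (+): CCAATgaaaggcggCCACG
Dnajc3, chr14:118937827-118937845 (+): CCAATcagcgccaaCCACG
Creld2, chr15:88819520-88819538 (-): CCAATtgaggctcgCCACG
Syvn1, chr19:6046532-6046550 (+): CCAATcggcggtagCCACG
A second motif, ERSE-II (ATTGG, any base, CCACG), was in the promoters of *Herpud1* and *Dnajb11*, which makes 2 of 21 (9.52%) beside 0.0365% of all promoters.
Herpud1, chr8:94386377-94386387 (+): ATTGGgCCACG
Dnajb11, chr16:22857852-22857862 (+): ATTGGcCCACG
The upstream bases of *Hspa5*, which encodes the main ER chaperone BiP, are given as an example, 250 bases on the plus strand with the ERSE in capitals. The same stretch follows for *Derl3*, the member with the largest fall, where capitals mark the ERSE (here on the opposite strand) and an E-box (CACGTG).
Hspa5, chr2:34771840-34772089 (+): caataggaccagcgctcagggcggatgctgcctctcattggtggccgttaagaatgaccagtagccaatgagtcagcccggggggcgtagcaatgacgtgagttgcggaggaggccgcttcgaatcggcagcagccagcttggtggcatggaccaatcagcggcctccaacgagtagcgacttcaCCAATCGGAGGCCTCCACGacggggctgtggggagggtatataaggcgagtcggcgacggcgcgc
Derl3, chr10:75893148-75893397 (+): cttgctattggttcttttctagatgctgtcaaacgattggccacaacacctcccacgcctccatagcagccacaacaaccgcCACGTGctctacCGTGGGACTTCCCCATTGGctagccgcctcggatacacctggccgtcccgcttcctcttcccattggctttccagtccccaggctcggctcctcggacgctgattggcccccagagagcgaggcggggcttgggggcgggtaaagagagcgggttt
Of the other motifs, the E-box was in 3 of 21 ER promoters (*Calr*, *Derl3* and *Dnajb9*, 14.3%) beside 7.15% of all promoters, and the cyclic AMP response element TGACGTCA in that of *Ppp1r15a* beside 1.79%. The letters TGACGTGG (0.676% of all promoters), TGATGCAAT (0.192%) and TGATGNAAT (0.965%) were in no member promoter, which says only that these letters are not in the windows searched. TGATGCAAT is 1 case of TGATGNAAT, and the motif letters were matched on both strands without regard to overlap.

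Library size was even, with 51265128 to 54400509 estimated counts in each RNA library. Across 14151 tested genes, 2066 were higher (14.6%) and 1892 were lower (13.4%) in the LKO libraries at an adjusted p under 0.05 (edgeR quasi-likelihood test, Benjamini-Hochberg), and the median log2 fold change of all tested genes was 0.0061. Called genes were 52.2% higher with TMM scaling, 43.1% without scaling factors and 65.4% with upper quartile factors. Levels are given as CPM, the counts of a gene for each 1000000 counts of its library after TMM scaling. *Jmjd1c* itself was at 22 and 22.8 CPM in the WT libraries and 20.04 and 20.5 CPM in the LKO libraries, a log2 fold change of -0.14 ± 0.084 (SE) with an adjusted p of 0.233. It was lower in both LKO libraries but did not pass the test, and a count over the whole gene cannot show the loss of a floxed exon. In the paper, RT-qPCR found less *Jmjd1c* mRNA in JMJD1C-LKO livers, and the protein was not detected there. Since the count in these libraries does not check the labels, LKO library means here a library labelled JMJD1C-LKO. Markers of macrophages rose in 8 of 8, and their summed level was 264 to 275 CPM in the WT libraries and 509 to 723 CPM in the LKO libraries. Those of hepatocytes, led by albumin, rose in 2 of 8 and summed to 136663 to 138803 and 127972 to 144849 CPM. Markers of endothelial cells rose in 5 of 7 and those of stellate cells and fibroblasts in 3 of 7. Of 14 markers of pancreatic acinar cells, which are rich in ER chaperones, 2 were in the table, and they summed to 0.668 to 1.01 CPM over the 4 libraries. In these bulk samples, fewer cells of a type and less RNA per cell cannot be told apart, and the part of such shifts in the results that follow was not tested. The pooled libraries were numbered but not paired, and p-values measure the spread between 2 pools in each group.

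ER chaperones were lower in the LKO libraries as a group. Of 14 members 12 fell and 0 rose, with a median log2 fold change of -0.69, and the same 12 were lower in both LKO libraries than in both WT libraries. Beside this, 13.4% of all tested genes fell, and 33.8% had both LKO libraries below both WT libraries. Over all 36 members 19 fell and 3 rose, with a median of -0.42. Both LKO libraries lay below both WT libraries for 24 members and above them for 4 (33.7% of all tested genes), and of the ATF4 branch 2 of 12 fell and 2 of 12 rose, with a median of -0.04. These shares of the ATF4 branch (16.7% each way) are near the 13.4% lower and 14.6% higher of all tested genes. The lists are not independent evidence, since they were drawn up with results of these libraries known.

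*Hspa5* encodes BiP, an ATPase that binds unfolded chains and also holds the sensors inactive. It was at 1308 and 1413 CPM in the WT libraries and 819.9 and 673 CPM in the LKO libraries, 1.82-fold lower, with a log2 fold change of -0.87 ± 0.11 and an adjusted p of 0.000595. The groups did not overlap. GRP94, the HSP90 of the ER lumen encoded by *Hsp90b1*, was at 1552 and 1585 CPM in the WT libraries and 1038 and 933 CPM in the LKO libraries, with a log2 fold change of -0.67 ± 0.088 and an adjusted p of 0.000849. *Hyou1* encodes GRP170, which exchanges the nucleotide of BiP, and was at 274 and 323 CPM in the WT libraries and 172 and 130.1 CPM in the LKO libraries (-0.98, adjusted p 0.00091). All of these BiP and HSP90 family chaperones stood well apart between the groups.

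The DNAJ cochaperones, which pass clients to BiP, divided. *Dnajb11* (ERdj3) was at 146 and 168 CPM in the WT libraries and 111 and 97 CPM in the LKO libraries (-0.60, adjusted p 0.00253). *Dnajc3* (p58IPK), also known as an inhibitor of PERK, was at 243 and 275 CPM in the WT libraries and 208 and 186 CPM in the LKO libraries (-0.40, adjusted p 0.0131). *Dnajb9* (ERdj4), a known target of XBP1, showed no such fall. It was at 24.4 and 29 CPM in the WT libraries and 26 and 30.6 CPM in the LKO libraries, the groups overlapped, and the log2 fold change of 0.08 had a 95% interval of -0.17 to 0.33 (adjusted p 0.616), which leaves out a fall of the size seen for *Dnajb11*. *Dnajb9* is at a lower level than the other chaperones, at 24.7 ± 3.36 TPM (a level divided by transcript length and scaled to 1000000 per library, SD, n = 2 WT libraries).

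The lectin chaperones, which hold glycoproteins during folding, also divided. Calreticulin, the soluble member encoded by *Calr*, was at 1527 and 1509.6 CPM in the WT libraries and 1168 and 938 CPM in the LKO libraries (-0.53, adjusted p 0.0069). Calnexin, its membrane-bound relative encoded by *Canx*, was at 197 and 244 CPM in the WT libraries and 217 and 193 CPM in the LKO libraries, and its groups overlapped. The log2 fold change of *Canx* was -0.10 with a 95% interval of -0.35 to 0.14 (adjusted p 0.517). *Calr* was the member with the highest level per length, at 1345 ± 9.88 TPM, against 88.9 ± 14.5 TPM for *Canx*.

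The protein disulfide isomerases among the members, which form and exchange disulfide bonds, were each lower. *Pdia3* (ERp57), the partner of calreticulin and calnexin, was at 553 and 532 CPM in the WT libraries and 376 and 291 CPM in the LKO libraries (-0.70, adjusted p 0.00243). *Pdia4* (ERp72) was at 315 and 335 CPM in the WT libraries and 218 and 178 CPM in the LKO libraries (-0.72, adjusted p 0.00138). *Pdia6* (P5) was at 242 and 255 CPM in the WT libraries and 187 and 161 CPM in the LKO libraries (-0.51, adjusted p 0.00383). In each case LKO library 2 was the lower of its pair, as it was for all 12 of the chaperones that fell.

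The small factors induced with the chaperones fell as well. *Sdf2l1*, which forms a complex with ERdj3, had the largest fall among the chaperones, 2.04-fold, and was at 47 and 51.2 CPM in the WT libraries and 26.6 and 21.6 CPM in the LKO libraries (-1.03 ± 0.11, adjusted p 0.00026). *Creld2*, a secreted protein induced by ER stress, was at 96.6 and 111 CPM in the WT libraries and 57 and 53.4 CPM in the LKO libraries (-0.91, adjusted p 0.00021). *Manf*, a factor that binds BiP and can be secreted, was at 208 and 238 CPM in the WT libraries and 128 and 110.0 CPM in the LKO libraries (-0.90, adjusted p 0.00036). The spread between the 2 libraries of a group was small beside these falls. Per length *Manf* was at 442 ± 48.5 TPM, after *Calr*, *Hsp90b1* and *Hspa5* among the chaperones.

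The calls for *Calr*, *Pdia6*, *Dnajb11* and *Dnajc3* were lost without WT library 2 (adjusted p 0.0663, 0.064, 0.0537 and 0.166), which left 8 chaperones and 11 of 36 members lower, and *Calr* was also lost without WT library 1 (0.0629). The other 8 chaperones that fell kept their calls without each library in turn.

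**Figure D1:**
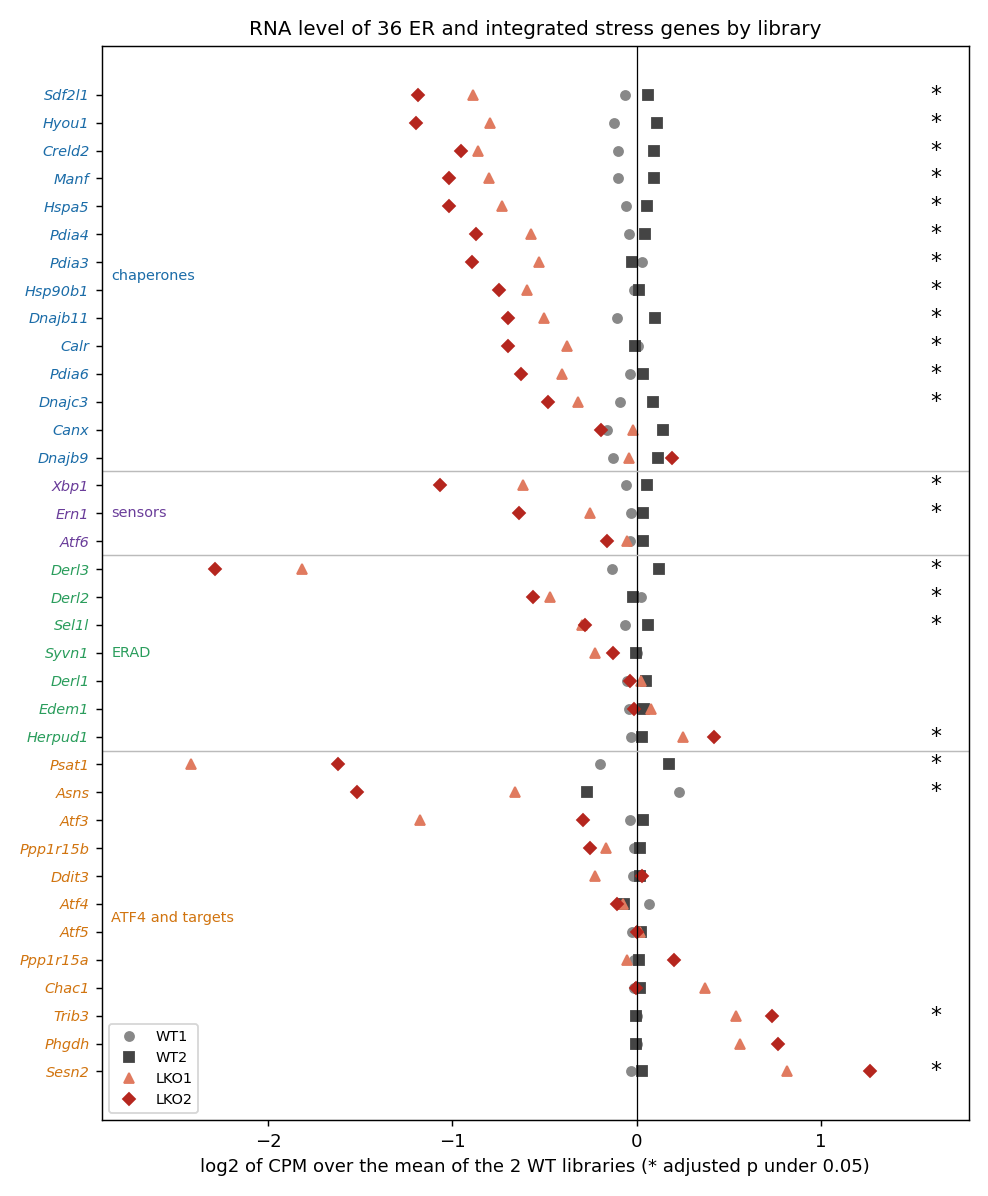
Each point is 1 library (grey WT, red LKO), placed by the log2 of its CPM over the mean of the 2 WT libraries, with the 36 genes grouped by role and sorted by fold change, and an asterisk marking an adjusted p under 0.05. The red points lie left of the grey ones for 12 of 14 chaperones, and on both sides for the ATF4 genes. Both red points lie to the right for *Sesn2*, *Trib3* and *Phgdh* of the ATF4 genes and for the ERAD gene *Herpud1*.

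Of the 3 sensors and transcription factors, 2 fell. *Xbp1* was at 336 and 363 CPM in the WT libraries and 228 and 166 CPM in the LKO libraries, 1.77-fold lower, with a log2 fold change of -0.82 ± 0.13 and an adjusted p of 0.00207. *Ern1*, the gene of the sensor IRE1 that processes it, was at 18.2 and 19 CPM in the WT libraries and 15.6 and 11.9 CPM in the LKO libraries (-0.44, adjusted p 0.0299), a call that was lost with upper quartile factors (adjusted p 0.0539), with the most abundant transcript alone (0.0848) and without any 1 of WT library 1, WT library 2 and LKO library 2 (log2 fold change then -0.47 to -0.25, adjusted p 0.105 to 0.194). *Ern1* was counted as 1 transcript, so with the most abundant transcript alone its own counts stayed the same and only other genes of the fit changed. *Atf6*, the other branch, was at 51.8 and 54.6 CPM in the WT libraries and 51.3 and 47.6 CPM in the LKO libraries, with a log2 fold change of -0.11 and a 95% interval of -0.29 to 0.08 (adjusted p 0.365). Both LKO libraries lay just below the WT ones.

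IRE1 cuts out 26 coding bases of the *Xbp1* mRNA, which shifts the reading frame and makes the active factor. RefSeq places them within an exon at chr11:5524278-5524303 (GRCm38.p6, plus strand). They are shown in capitals with 20 bases on each side, since RefSeq holds both forms and the count table gave each its own row. The capitals open with a G and a g follows them. A stretch that leaves out that first G and takes in that g gives the same spliced sequence, so the capitals do not fix the exact cuts.
Xbp1, chr11:5524258-5524323 (+): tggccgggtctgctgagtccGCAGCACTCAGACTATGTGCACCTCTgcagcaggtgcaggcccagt
The spliced form took 49.1% and 50.9% of the *Xbp1* counts in the WT libraries and 47.3% and 51.5% in the LKO libraries. The shares overlapped, with a mean of 49.995% ± 1.3 (SD, n = 2) in WT and 49.4% ± 2.9 in LKO. The spliced form was at 165 and 185 CPM in the WT libraries and 108 and 85.7 CPM in the LKO libraries, and the unspliced form at 171 and 178 CPM against 120.1 and 80.7 CPM. For both forms the LKO libraries lay below the WT ones. The forms differ by those 26 bases alone, so few reads can tell them apart and the authors' counting estimated each share. How far such a share follows splicing was not tested.

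**Figure D2:**
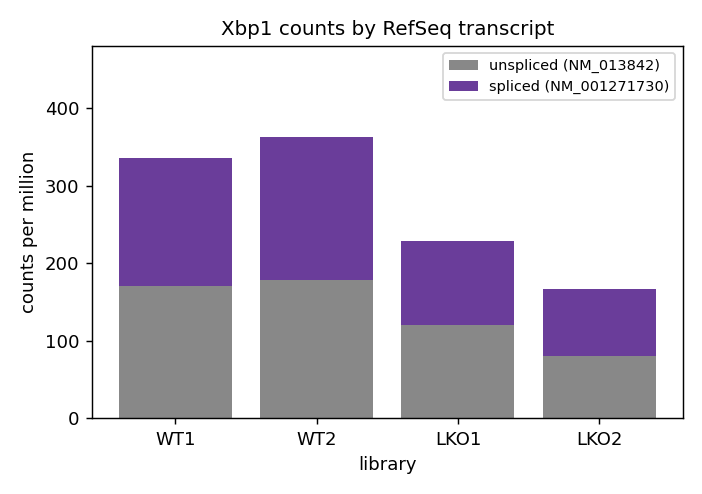
Bars give the CPM that the table assigns to the unspliced (grey) and spliced (purple) *Xbp1* transcript in each of the 4 RNA libraries. The bars of the LKO libraries are shorter, and each is divided about evenly, with 47.3% to 51.5% of counts in the spliced form over the 4 libraries.

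ERAD returns misfolded proteins to the cytosol for destruction, and its 7 genes did not move as one. Of these 3 fell, 1 rose and 3 did not pass the test, with a median log2 fold change of -0.18. The derlins, membrane proteins of the channel, divided. *Derl3* was at 20.1 and 23.9 CPM in the WT libraries and 6.25 and 4.5 CPM in the LKO libraries, 4.09-fold lower, with a log2 fold change of -2.04 ± 0.16 and an adjusted p of 5.95e-05, the largest fall of the 36 genes. *Derl2* was at 137 and 133 CPM in the WT libraries and 97.4 and 91.1 CPM in the LKO libraries (-0.52, adjusted p 0.00175). *Derl1* was at 119 and 128 against 126 and 121 CPM (WT, then LKO), with overlapping groups and a 95% interval of -0.19 to 0.17 on the log2 scale. Plasma cells also express *Derl3*. Of 8 other plasma cell and B cell markers 7 were tested and 0 passed. For 6 of the 8 both LKO libraries lay above both WT libraries, beside 33.7% of all tested genes. Their summed level was 3.51 to 4.05 CPM in the WT libraries and 5.42 to 7.22 CPM in the LKO libraries. The defining markers *Jchain* and *Mzb1* were near 0 in every library, at 0.537 to 1.22 and 0.116 to 0.327 CPM. Whether plasma cells have a part in the level of *Derl3* was not tested.

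*Herpud1*, a membrane protein that organises the ubiquitin ligase complex, was the only ER member that rose. It was at 374 and 389.5 CPM in the WT libraries and 454 and 511 CPM in the LKO libraries, 1.26-fold higher, with a log2 fold change of 0.34 ± 0.088 and an adjusted p of 0.0189. The groups did not overlap, but the call was lost without WT library 1 (adjusted p 0.177), WT library 2 (0.128) or LKO library 2 (0.0504). *Sel1l*, which anchors that ligase, was at 180.2 and 196 CPM in the WT libraries and 153 and 155 CPM in the LKO libraries (-0.29, adjusted p 0.0253), and lost its call without WT library 1 (adjusted p 0.098) or 2 (0.248) and with upper quartile factors (0.0629). The ligase itself, HRD1, encoded by *Syvn1*, was at 106 and 105 against 90.0 and 96.5 CPM (WT, then LKO), with a log2 fold change of -0.18 that did not pass the test (adjusted p 0.122). *Edem1*, a mannosidase-like lectin that picks out misfolded glycoproteins, was at 103 and 108 against 111 and 104 CPM, with overlapping groups and a 95% interval of -0.15 to 0.21. *Herpud1*, at 336 ± 14.6 TPM, is the most abundant ERAD gene of the list. The summed ERAD level was 1039 to 1084 CPM in the WT libraries and 1038 to 1083 CPM in the LKO libraries. *Herpud1*, which rose, is the largest part of that sum, and 3 of the 7 genes fell. The even sum therefore does not mean that the ERAD genes were unchanged. The summed level of the chaperones was 6734 and 7067 CPM in WT against 4754 and 3995 CPM in LKO.

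**Figure D3:**
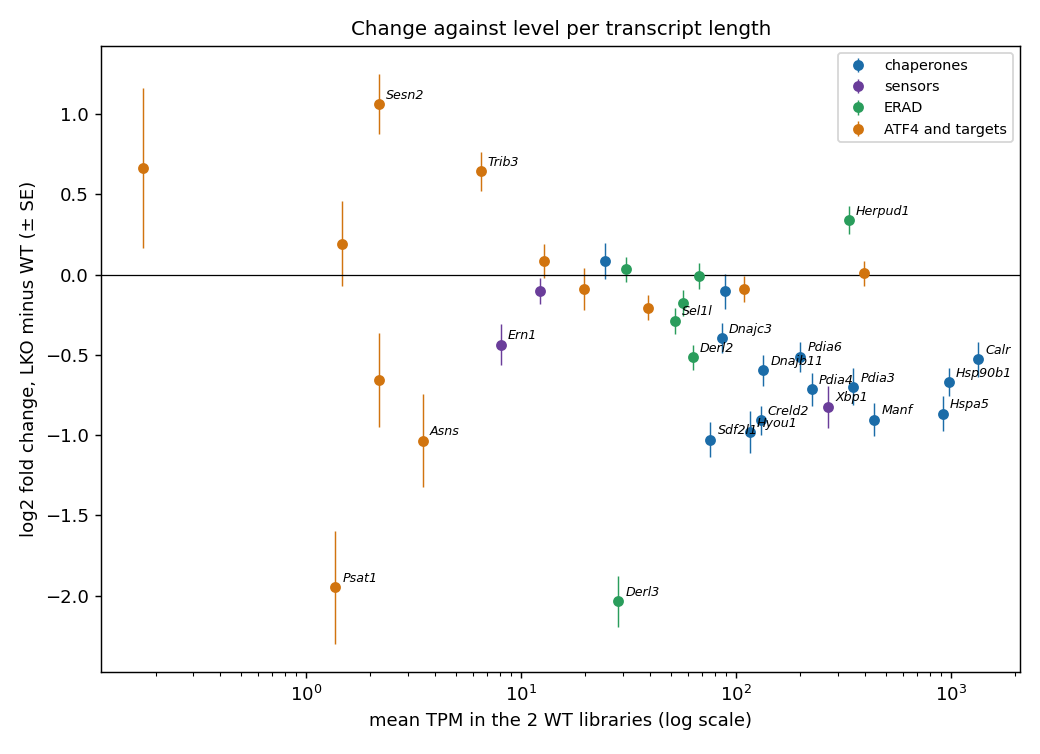
Each point is 1 gene, with its mean level per transcript length in the 2 WT libraries (TPM, log axis) and its log2 fold change between LKO and WT libraries (± SE), coloured by role, and with names for the 22 genes past an adjusted p of 0.05. The chaperones that fell lie between 76.3 and 1345 TPM, the ATF4 genes that passed the test lie between 1.37 and 6.51 TPM, and *Derl3* stands alone at 28.3 TPM.

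Of the transcription factors of the ATF4 branch, *Atf4*, *Atf5* and *Ddit3* differed little between the groups. *Atf4* was at 96.5 and 87.7 CPM in the WT libraries and 87.6 and 85.5 CPM in the LKO libraries, with a log2 fold change of -0.09 and a 95% interval of -0.27 to 0.09 (adjusted p 0.45). *Atf5*, a relative that is translated in the same way, was at 405 and 418 CPM in the WT libraries and 416 and 412 CPM in the LKO libraries, with an interval of -0.17 to 0.18 (adjusted p 0.946). The groups of *Atf5* overlapped, and those of *Atf4* all but met. ATF4 is controlled mainly in translation, which RNA levels do not show. *Ddit3*, which encodes the pro-apoptotic factor CHOP, was at 9.43 and 9.68 CPM in the WT libraries and 8.18 and 9.76 CPM in the LKO libraries, with overlapping groups (-0.09, interval -0.38 to 0.20, adjusted p 0.64). *Atf3* was at 2.45 and 2.57 CPM in the WT libraries and 1.11 and 2.05 CPM in the LKO libraries, both LKO libraries were below both WT libraries, and its log2 fold change of -0.66 had an adjusted p of 0.122 (0.0115 without LKO library 2).

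Among the targets, 2 genes of stress signalling rose. *Sesn2*, encoding sestrin 2, a leucine-binding inhibitor of mTORC1, was at 3.32 and 3.45 CPM in the WT libraries and 5.95 and 8.15 CPM in the LKO libraries, 2.08-fold higher (1.06 ± 0.19, adjusted p 0.00334). *Trib3*, a pseudokinase that binds AKT and ATF4, was at 7.77 and 7.75 CPM in the WT libraries and 11.3 and 12.9 CPM in the LKO libraries, 1.56-fold higher (0.64 ± 0.12, adjusted p 0.00465), a call that was lost without WT library 1 (adjusted p 0.0589) or 2 (0.068). In both the groups did not overlap.

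Among the listed genes of amino acid synthesis, *Psat1* and *Asns* passed the test, and both fell. *Psat1*, of serine synthesis, was at 1.5 and 1.96 CPM in the WT libraries and 0.324 and 0.562 CPM in the LKO libraries, 3.9-fold lower (-1.95 ± 0.35, adjusted p 0.00383), and lost its call without WT library 2 (0.0611). *Asns*, asparagine synthetase, was at 4.69 and 3.32 CPM in the WT libraries and 2.53 and 1.4 CPM in the LKO libraries, 2.04-fold lower (-1.03 ± 0.29, adjusted p 0.026), and lost its call with the most abundant transcript alone (0.0821) and without WT library 1 (0.225), WT library 2 (0.0662) or LKO library 2 (0.0771). Both are at low levels, and their standard errors (0.35 and 0.29) are wider than those of the chaperones that fell (0.088 to 0.13). *Asns* was counted as 1 transcript, so the most abundant transcript alone left its own counts unchanged. Its call moved through the other genes of the fit. *Phgdh*, the first enzyme of serine synthesis, was listed at 0.192 to 0.327 CPM, both LKO libraries were above both WT libraries, and its log2 fold change of 0.66 had an interval of -0.46 to 1.78.

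The regulatory subunits that direct removal of the phosphate from eIF2α did not pass the test. *Ppp1r15a* (GADD34), the inducible one, was at 17.2 and 17.5 against 16.7 and 19.995 CPM (WT, then LKO), with overlapping groups. *Ppp1r15b* (CReP), the constitutive one, was at 124.8 and 127.6 against 112 and 106 CPM, with a log2 fold change of -0.21 and an adjusted p of 0.0742, and was called lower without scaling factors (-0.25, adjusted p 0.0323) and without LKO library 1 (-0.26, 0.0271). *Chac1*, which degrades glutathione, was at 1.33 and 1.36 against 1.74 and 1.34 CPM, with overlapping groups. Reads of *Ddit3* and *Atf5* may be shared with genes that overlap them on the opposite strand (*Mars1* for *Ddit3*, *Nup62* and *Il4i1b* for *Atf5*), and so may those of *Pdia6*, *Dnajb11*, *Syvn1*, *Derl2* and *Ppp1r15a* with theirs, since the counting is not stated to use strand.

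Members with an ERSE were set beside those without. Of 9 ER members with an ERSE 7 fell, with a median log2 fold change of -0.53, and of 9 ER members in the promoter table with neither motif 7 fell too, with a median of -0.52. The counts were the same with and without the motif. The search took exact letters only, and *Pdia4*, *Sdf2l1* and *Sel1l*, counted without it, hold both CCAAT and CCACG. Whether a promoter holds a working element was not tested, so the counts do not compare genes with and without one. *Canx* and *Syvn1* were the members with an ERSE that did not pass the test. Of the 2 with an ERSE-II, *Dnajb11* fell and *Herpud1* rose. Of 28 further genes with an ERSE in their promoter, 11 were among those tested, of which 2 fell and 1 rose, with a median of 0.05.

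Genes of the same pathways outside the list had medians nearer to 0 than the chaperones. Of 21 other folding and oxidation genes of the ER 5 fell and 0 rose, with a median log2 fold change of -0.12. The 3 with the smallest p were *Erp44* (-0.44, adjusted p 0.00415), *Ero1lb* (-0.58, 0.00568) and *Txndc5* (-0.42, 0.0101), which retain, oxidise and isomerise secretory proteins. Of 20 genes of translocation and signal peptide removal 9 fell, led by *Ssr2* (-0.43, 0.00409), *Ssr1* (-0.48, 0.00491) and *Spcs2* (-0.40, 0.00666), and 1 rose, *Spcs1* (0.54, 0.0368). The median of that list was -0.21. Of 17 other ERAD genes 3 fell (*Ubxn4*, -0.55; *Rnf5*, -0.32; *Ufd1*, -0.25) and 2 rose (*Ube2g2*, 0.43; *March6*, 0.25), with a median of -0.14.

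Of 18 other sensors, eIF2 kinases and eIF2B subunits 2 fell (11.1%) and 3 rose (16.7%), near the 13.4% and 14.6% of all tested genes. Those that fell were *Eif2b3* (-0.65) and *Eif2b1* (-0.38), subunits of the exchange factor that phosphorylated eIF2 inhibits, and those that rose were *Creb3l3* (0.35), *Creb3l2* (0.81) and *Tmbim6* (0.27). Of 27 other ATF4 and amino acid response genes 7 fell and 6 rose with a median of -0.02. *Fgf21*, a hormone of the fasted liver, was at 30.3 and 27.2 CPM in the WT libraries and 5.04 and 5.5 CPM in the LKO libraries (-2.45, adjusted p 4.78e-06), and *Gadd45a* (-2.33, 0.000141) and *Cars* (-0.95, 0.000222) followed it. *Ddit4*, an inhibitor of mTORC1 like *Sesn2*, was at 4.05 and 4.22 CPM in the WT libraries and 41 and 84 CPM in the LKO libraries (3.92, adjusted p 5.81e-05), and *Mknk2* (1.10, 0.000172) and *Cth* (0.94, 0.000533) rose as well. Cytosolic chaperones were given the same count. Of 18 genes 9 fell, led by *Hsp90aa1* (-0.75, 0.00035), *Hspb1* (-0.81, 0.00109) and *Chordc1* (-0.55, 0.00141), and 2 rose, *Hspa1a* (2.55, 0.000695) and *Hspa1b* (1.06, 0.00176), the inducible forms of HSP70. Their median was -0.27.

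Open chromatin at the starts of the members was read from the deposited ATAC summits, the highest points of called peaks. A member was counted where a summit lay within 1000 bp of a RefSeq start. In the refed WT livers 15 and 10 of the 36 members had one (41.7% and 27.8%), and 8 had it in both livers (8.07% of RNA-tested genes), namely *Hspa5*, *Canx*, *Dnajb9*, *Manf*, *Sel1l*, *Derl2*, *Ddit3* and *Ppp1r15b*. In the fasted WT livers the counts were 6 and 7, with *Canx* and *Syvn1* in both (7.36% of RNA-tested genes), and in the refed LKO livers 5 and 0. Among RNA-tested genes the share was 16.7% and 10.5% in the refed WT livers, 20.2% and 9.28% in the fasted WT livers and 6.66% and 1.31% in the refed LKO livers. The members thus stood above the share of all genes in both refed WT livers, and on either side of it in the fasted ones. With 2 livers against 2 an exact test cannot go below 0.333, and no test was made.

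The number of summits per liver bears on these counts. It was 5220 and 7632 in the fasted WT livers, 5027 and 3119 in the refed WT livers, and 1450 and 825 in the refed LKO livers, so an absent summit in the LKO livers may be one that was not called. The refed LKO livers had fewer summits than the refed WT livers and fewer members with one, so the 2 differences cannot be told apart. The fasted WT livers had more summits than the refed WT livers and fewer members with one (6 and 7 against 15 and 10). However, 51.7% and 15.3% of summits lay within 1000 bp of a start in the fasted WT livers, against 43.5% and 42.5% in the refed ones. The total number of summits thus does not give the number at starts, and its part in that difference was not tested. When each liver was limited to its 825 top-scoring summits, 0 members had one in both livers of any group, which leaves no values to compare.

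*Canx* was the only member with a summit in 5 of the 6 ATAC livers, at 37 to 57 bp before the start in each, although its RNA did not pass the test. *Hspa5* had summits at 184 and 329 bp before the start in the refed WT livers and in no other liver, and its ERSE printed above lies at 65 to 47 bases before the start. Their scores (-log10 of the q-value) were 6.69 in refed WT liver 1 and 3.51 in liver 2. With scores of at least 5 only *Canx* and *Dnajb9* had a summit in both refed WT livers. *Manf* had summits at 335 and 298 bp in the refed WT livers and at 380 bp in fasted liver 2. *Dnajb9* had a summit at the same 192 bp in both refed WT livers, and at 44 and 47 bp in fasted liver 1 and LKO liver 1. *Dnajb11* had one in fasted liver 2, refed WT liver 1 and LKO liver 1. *Sel1l* and *Derl2* had 1 in a fasted liver besides the refed ones. Summits were thus found near the starts of members that fell and of members that did not.

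The remaining summits were in 1 or a few livers. Refed WT liver 1 alone had them at *Pdia4*, *Dnajc3*, *Ern1*, *Edem1* and *Derl1*, and refed WT liver 2 alone at *Atf4*. *Atf3* had one at the same 105 bp before the start in refed WT liver 1 and LKO liver 1. *Creld2* had one in fasted liver 2 and refed WT liver 2, *Hsp90b1* in fasted liver 1 and LKO liver 1, *Xbp1* in fasted liver 1 and *Atf5* in fasted liver 2. The summits near *Creld2*, *Hsp90b1*, *Dnajb11*, *Derl2* and *Atf5* are also within reach of the start of another gene (*Alg12*, *Ttc41*, *Tbccd1*, *Mis12*, and *Nup62* with *Il4i1b*), and those near *Dnajb9* of *Mir5627*. The remaining 15 members had no summit in any of the 6 livers, namely *Calr*, *Pdia3*, *Pdia6*, *Sdf2l1*, *Hyou1*, *Atf6*, *Herpud1*, *Derl3*, *Trib3*, *Asns*, *Chac1*, *Ppp1r15a*, *Sesn2*, *Psat1* and *Phgdh*. In the ATF4 branch 4 of 12 had a summit in either refed WT liver, and among the ER genes 13 of 24, beside 19.2% of RNA-tested genes.

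**Figure D4:**
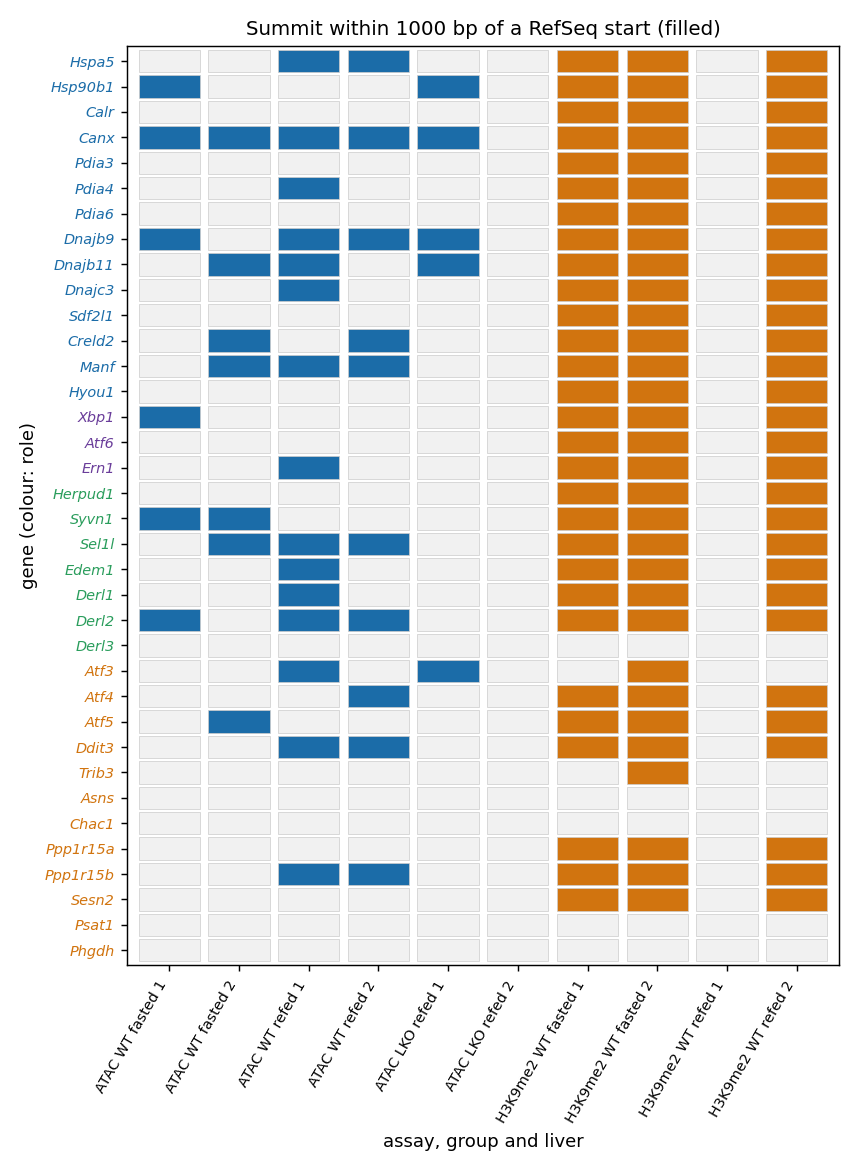
Filled cells mark a summit within 1000 bp of a RefSeq start, with 1 row for each of the 36 genes (label colour gives the role) and 1 column for each of the 6 ATAC-seq livers (blue) and 4 H3K9me2 livers (orange). LKO liver 2 of the ATAC columns and refed liver 1 of the H3K9me2 columns are empty, and *Derl3*, *Asns*, *Chac1*, *Psat1* and *Phgdh* have no filled cell.

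H3K9me2 is usually described as a mark of silent chromatin, and its removal is the known activity of JMJD1C. Its summits were at most members in 3 of 4 livers. They were found at 29 and 31 of 36 members in the fasted WT livers, 29 of them in both (51.3% of RNA-tested genes), and at 0 and 29 in the refed WT livers. Among RNA-tested genes the fasted livers had shares of 51.6% and 74.1%, and the refed ones 0.123% and 61.6%. Refed liver 1 had 1297 summits, against 7690 to 13456 in the other 3 livers, and 5.01% of them lay near a start against 83.5% to 92.0%. It stands apart for all genes, so no comparison of fasted with refed livers was made at the members. In refed liver 2 the 29 members were the 29 of the fasted livers.

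In each of the 3 livers 23 of 24 ER genes had a summit, *Derl3* being the exception, while of the 12 ATF4 genes 6, 8 and 6 had one. *Derl3*, *Asns*, *Chac1*, *Psat1* and *Phgdh* had none in any liver, and *Atf3* and *Trib3* had one in fasted liver 2 only. These 7 genes had WT levels of 0.192 to 22.0 CPM, with a median of 2.51 CPM, and the 29 with a summit in both fasted livers 3.38 to 1568 CPM, with a median of 157 CPM. The same order held over all tested genes, of which 15.2% had a summit in both fasted livers below 5 CPM, 59.7% from 5 to 25 CPM, 80.9% from 25 to 100 CPM and 85.8% above. Among members the counts in those ranges were 1 of 6, 3 of 5, 4 of 4 and 21 of 21. Summits were thus more frequent at genes with more RNA, which is not the order of a mark of silent genes. The reason was not tested. The RNA levels are those of refed livers, and RNA level and branch cannot be told apart in 36 genes. Among members with a summit in both fasted livers *Sesn2* had the lowest level, 3.38 CPM.

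Position differed between the assays. Of 44 ATAC summits at members 35 lay upstream of the start, with a median of 105 bp before it, and 16 lay within 100 bp of it. Of the H3K9me2 summits 90 lay downstream and 35 upstream, with a median of 279 bp after the start, and 2 lay within 100 bp of it. At *Hspa5* the H3K9me2 summits nearest the start were 306, 258 and 308 bp away in fasted liver 1, fasted liver 2 and refed liver 2. A member can hold more than 1 summit in a liver, on either side of its start.

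**Figure D5:**
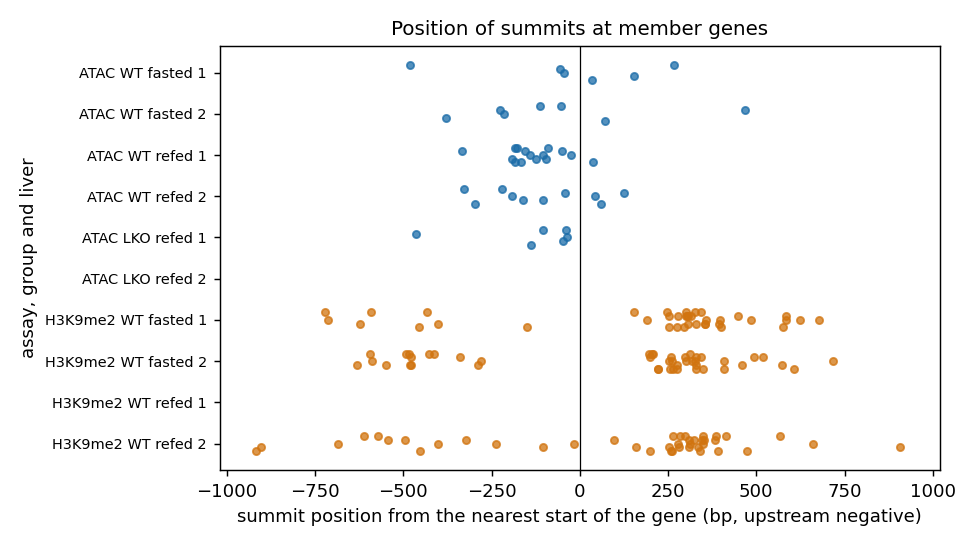
Each point is 1 summit within 1000 bp of a member's start, placed by its distance from that start in bp (upstream negative), with 1 row for each liver, ATAC-seq in blue and H3K9me2 in orange. The ATAC points gather before the start (median 105 bp upstream), and the H3K9me2 points leave it free, with 2 of them within 100 bp.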

How the data were processed

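RNA-seq, ATAC-seq and H3K9me2 ChIP-seq of mouse liver were analysed as deposited, with 2 samples in each group, which the titles and genotype labels define. Fasted and refed were taken from the titles alone, since the treatment text of the labels is the same for every sample. Liver numbers also follow the titles, while the names of the H3K9me2 peaks carry other liver numbers. Input libraries were not used here. The members, the gene lists and the motifs were chosen with earlier results of these data known.

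The authors' RNA-seq file holds deposited expected counts, an estimate for each RefSeq transcript, of which 65.7% to 66.0% are not whole. The software was Partek, and how counts were estimated is not given in the sources used here. The peak files hold the summits that the authors called with MACS2, and the deposited score is a q-value on the -log10 scale. ATAC-seq reads were aligned to mm10 with BWA and ChIP-seq reads with Bowtie2, per the methods. The submitters' processing notes also name HISAT2, CASAVA, bcl2fastq, cutadapt and DESeq2, and MACS2 2.1.1. A list of the authors' own fold changes and p-values was not used here.

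Counts were summed per gene and rounded. Genes passing filterByExpr were scaled with TMM and tested with the quasi-likelihood F test of edgeR 4.0.16 in R 4.3.3, and p-values were adjusted over all 14151 tested genes (Benjamini-Hochberg, threshold 0.05). Errors of log2 fold changes are standard errors derived from the F statistic, and 95% intervals use the t distribution with the degrees of freedom of that test. The common dispersion was 0.0083, and the script was tested on simulated data. Estimated counts split between near-identical transcripts or gene copies are uncertain.

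RefSeq starts (NM and NR transcripts) of GRCm38.p6 were used for summits, within 1000 bp on each side, and coordinates count from 1. The summit files hold no read counts, and the methods give 1 approximate read depth for the ChIP-seq as a whole and none for each liver, so depth was not compared, and a summit that was not called is not an absence of signal. Promoters hold 250 bases before and 50 after a start.

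The members named with values in every library are those past the threshold, the sensors and transcription factors, and *Hspa5*; others are given more briefly, and from each pathway list at most 3 genes in each direction with the smallest p. *Phgdh*, *Canx*, *Dnajb9* and the remaining members with values were added to complete their families. Alternatives were RLE, upper quartile or no scaling, no filter, DESeq2 1.42.0, the most abundant transcript, a replicate block, leaving out each library, and other windows, scores and summit numbers.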

Additional observations from a re-analysis of the deposited data

How the results depend on the processing

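Under DESeq2 size factors, no filter on low counts and the DESeq2 Wald test the members were called as with edgeR, with 3 higher and 19 lower each time. Of the 22 calls, 19 held under all 7 settings that keep every library, and 12 also without each library in turn (*Hspa5*, *Hsp90b1*, *Pdia3*, *Pdia4*, *Sdf2l1*, *Creld2*, *Manf*, *Hyou1*, *Xbp1*, *Derl2*, *Derl3* and *Sesn2*). Without scaling factors 3 were higher and 20 lower, *Ppp1r15b* being added, and *Atf3* was added without LKO library 2. Upper quartile factors, which raised the median of all genes to 0.072, took the calls of *Ern1* and *Sel1l* and left 1 sensor lower, with a median of -0.35 over all members and 0.026 over the ATF4 genes. The most abundant transcript alone left 1 sensor and 1 ATF4 gene lower. Leaving out 1 library at a time gave 12 to 23 members past the threshold, 11 to 20 of them lower and 1 to 3 higher, a median over members of -0.48 to -0.31, 1 to 2 sensors lower, 0 to 1 ERAD gene higher, and 1 to 2 ATF4 genes higher with 0 to 3 lower; the lowest counts came without WT library 2, and a lone WT library is assumed to vary like the LKO pair. No member changed sign where it had been called.

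The replicate numbers did not pair the libraries, with a correlation of deviations of -0.0046 between WT library 1 and LKO library 1. With 2 libraries in each group the value for LKO library 2 is the same with the sign turned, so it adds nothing. With the replicate block 3 members were higher and 19 lower, as without it, and all genes gave 2211 higher and 1996 lower.

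Members with an ATAC summit in both livers numbered 8 in refed WT, 2 in fasted WT and 0 in refed LKO. With scores of at least 5 they were 2, 1 and 0, with equal numbers of top-scoring summits per liver 0 in each group, and in either liver 17, 11 and 5. A single liver gave 10 to 15, 6 to 7 and 0 to 5. For H3K9me2 the 29 in fasted WT became 17 with equal numbers of summits per liver, and the 0 in refed WT became 29 in either liver (0 to 29 in a single liver). Windows of 500 and 2500 bp kept all these counts within 1.5 times. The *Xbp1* share was unchanged beyond its spread.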
